A study of Mus musculus with 2 samples.

Results

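The Zfp genes of mouse chromosome 7 were taken as the protein-coding genes on that chromosome whose symbol is Zfp followed by digits only. This gave 86 of 22367 protein-coding genes in the mm9 annotation (GENCODE M1), which was used for promoters and exons, and 90 of 21887 in the mm10 annotation (RefSeq), which was used for gene bodies. In all, 85 symbols were in both annotations. Zfp607 was found in mm9 alone, and Zfp383, Zfp974, Zfp975, Zfp976 and Zfp977 in mm10 alone. The choice used the symbol and the chromosome and no measured value. The symbol is not a protein family: Zfp36, which encodes the RNA-binding protein tristetraprolin, is a member by its symbol and had 0 fingers of the C2H2 kind.

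The mark H3K9me3, trimethylation of lysine 9 on histone H3, was profiled by chromatin immunoprecipitation and sequencing of E14TG2a.4, a male mouse embryonic stem cell line of strain 129/Ola with a labelled age of 3.5 days. The samples form 1 group of 2 biological replicates, given in the labels as separate biosamples of this line. The labels name no treatment and no altered allele, and there is no comparison group. All values therefore come from a single line. Both reference genomes represent another strain, C57BL/6, so copies of clustered genes that differ between the strains could not be followed. The files hold called peaks without read counts. The depth of either replicate is thus unknown, no control library was analysed here, and the identity of the cells could not be checked by markers.

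Most Zfp genes encode proteins with an array of C2H2 zinc fingers, small domains that each hold a zinc ion between a pair of cysteines and a pair of histidines and that together read a DNA sequence. Many of these proteins also carry a KRAB domain, which binds Trim28 and through it Setdb1, the enzyme that places H3K9me3 at retroelements in embryonic stem cells. The genes themselves lie in clusters that grew by duplication, and the finger array is usually encoded in the last exon. H3K9me3 over that exon is known from human zinc finger genes.

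In mm9 the authors called broad regions separately in each replicate, with boundaries in steps of 200 bp, and bases covered in both replicates are called shared regions below. In mm10 they called narrow peaks in each replicate and in the pool, and derived a list of replicated peaks from these lists. Any overlap of at least 1 bp counted. The fold enrichment of a region or peak is the authors' value, a linear ratio, and none of the sources used here names its reference. With 1 group of 2 samples no test was possible, so the main shares below stand beside the same share over all protein-coding genes. An SD is over the 2 replicates.

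The promoters below are shown because they pair a marked with an unmarked member of the same cluster. The first pair is Zfp629 (chr7:127615223-127615522, minus strand), whose 300 printed bases all lay in the replicated peaks and in the peaks of each replicate, and Zfp689 (chr7:127449109-127449408, minus strand), where 0 bases did. The second pair is Zfp790 (chr7:29815822-29816121, plus strand), with 110 bases in replicated peaks, 17 in replicate 1 and 135 in replicate 2, and Zfp84 (chr7:29768302-29768601, plus strand), with 0. The sequences are from RefSeq (GRCm38.p6), run from 250 bases before to 50 bases after the listed start, 5′ to 3′, and capitals mark each CG dinucleotide. The listed starts of Zfp790 and Zfp629 lie inside the mm10 gene spans used for bodies. The 5′ ends of these spans are at chr7:29811437 and chr7:127615785.
Zfp629 promoter: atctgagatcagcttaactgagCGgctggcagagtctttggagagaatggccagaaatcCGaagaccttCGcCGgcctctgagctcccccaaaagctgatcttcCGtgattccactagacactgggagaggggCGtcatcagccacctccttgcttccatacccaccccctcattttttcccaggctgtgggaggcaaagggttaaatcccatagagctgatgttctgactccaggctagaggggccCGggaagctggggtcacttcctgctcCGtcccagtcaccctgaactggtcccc
Zfp689 promoter: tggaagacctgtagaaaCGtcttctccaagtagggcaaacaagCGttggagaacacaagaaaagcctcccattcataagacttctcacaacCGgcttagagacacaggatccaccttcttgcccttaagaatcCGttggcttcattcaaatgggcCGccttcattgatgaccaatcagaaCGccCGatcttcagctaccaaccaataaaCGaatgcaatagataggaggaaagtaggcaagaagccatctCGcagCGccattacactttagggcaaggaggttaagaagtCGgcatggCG
Zfp790 promoter: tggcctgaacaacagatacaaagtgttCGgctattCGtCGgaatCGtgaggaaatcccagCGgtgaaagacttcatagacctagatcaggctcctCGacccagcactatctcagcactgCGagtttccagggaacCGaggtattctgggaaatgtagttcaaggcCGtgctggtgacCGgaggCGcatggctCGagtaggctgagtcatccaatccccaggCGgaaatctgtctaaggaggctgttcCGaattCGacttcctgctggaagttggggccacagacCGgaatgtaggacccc
Zfp84 promoter: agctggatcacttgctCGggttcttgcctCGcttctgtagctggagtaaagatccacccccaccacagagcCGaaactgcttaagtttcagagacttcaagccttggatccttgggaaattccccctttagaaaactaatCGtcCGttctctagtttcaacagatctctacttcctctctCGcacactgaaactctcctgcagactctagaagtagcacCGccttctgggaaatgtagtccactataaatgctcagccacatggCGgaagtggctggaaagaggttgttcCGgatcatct
These hold 8, 12, 16 and 9 CG dinucleotides in this order. The median was 14 over the 93 listed promoters of members and 7 over all 32851 listed promoters, of which 94.6% held at least 1. Within the first pair the uncovered promoter had more CG dinucleotides, and within the second pair fewer.

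Stretches of finger coding sequence are shown next because the last exon was the most covered part of these genes. In each, capitals mark the linker that joins neighbouring fingers, searched as ACNGGNGANAANCC on both strands. The 252 bases of Zfp30 (mm9, chr7:30578083-30578334, plus strand) and of Zfp629 (mm9, chr7:134755364-134755615, minus strand) lay wholly in regions of both replicates. Those of Zfp84 (mm9, chr7:30561990-30562241, plus strand), the neighbour of Zfp30, had 0 bases in either replicate.
Zfp30 fingers: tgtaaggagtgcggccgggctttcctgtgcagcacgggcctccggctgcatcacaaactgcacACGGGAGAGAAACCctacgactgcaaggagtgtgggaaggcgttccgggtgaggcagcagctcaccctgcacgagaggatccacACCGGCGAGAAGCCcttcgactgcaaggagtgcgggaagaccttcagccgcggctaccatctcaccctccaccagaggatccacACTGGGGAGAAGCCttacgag
Zfp84 fingers: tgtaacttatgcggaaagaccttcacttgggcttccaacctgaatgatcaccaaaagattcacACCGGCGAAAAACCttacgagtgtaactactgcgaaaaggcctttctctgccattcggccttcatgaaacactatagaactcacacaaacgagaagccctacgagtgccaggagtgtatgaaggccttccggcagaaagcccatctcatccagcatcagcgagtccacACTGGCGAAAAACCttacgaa
Zfp629 fingers: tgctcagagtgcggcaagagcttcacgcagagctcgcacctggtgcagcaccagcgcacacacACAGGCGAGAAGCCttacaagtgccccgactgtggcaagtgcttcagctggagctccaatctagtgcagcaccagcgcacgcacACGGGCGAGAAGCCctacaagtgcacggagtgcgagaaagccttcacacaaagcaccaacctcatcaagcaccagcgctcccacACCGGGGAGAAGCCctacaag
The linker occurs 3 times in the stretches of Zfp30 and Zfp629 and 2 times in that of Zfp84. Each stretch was picked as the run of 3 fingers with the most linkers in its gene, so these counts are maxima. The whole last exons held 6 in Zfp30, 7 in Zfp629 and 5 in Zfp84. The linker was found in the last exon of 9 of the 13 members whose last exon was mostly covered and of 48 of the other 73. Over all genes 441 of 22367 last exons held it, or 1.97%, and of all 43233 shared regions 399 did, or 0.923%. The repeated linker thus occurred in covered and uncovered members alike.

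Promoters were counted within 1 kb of any transcript start in mm9. A shared region touched the promoter of 11 of the 86 members, or 12.8%, against a background of 5.54% of all protein-coding genes (1239 of 22367). The 258 Zfp genes on the other chromosomes had 31, or 12%, and the 1986 other protein-coding genes of chromosome 7 had 130, or 6.55%. The share on chromosome 7 was therefore near that of Zfp genes elsewhere. Zfp genes on chromosome 13 had 6 of 33, or 18.2%, and those on chromosome 17 had 3 of 39, or 7.69%. At these numbers the chromosomes cannot be ranked.

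The strongest promoter was that of Zfp629, inside a block that ran from the gene's last exon to well beyond its start. The block was 26.6 kb long in replicate 1 (chr7:134750001-134776600) and 27.6 kb in replicate 2 (chr7:134749401-134777000). Its fold enrichment was 9.14 in replicate 1 and 13.2 in replicate 2, a mean of 11.2 ± 2.90 (SD, n = 2). All 9 annotated starts of the gene were marked, and 100% of the promoter window was covered in both replicates.

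Zfp575 and Zfp553 came next, both short genes covered over most of their length. The region at Zfp575 had a fold enrichment of 8.01 in replicate 1 and 11.6 in replicate 2 (9.79 ± 2.51, SD, n = 2) and covered 57.0% of the promoter window. The region at Zfp553 had 7.29 and 8.91 (8.10 ± 1.14, SD, n = 2) but covered only 16.8% of the window, so it began downstream of the start. In replicate 2 the Zfp553 region was 10.0 kb long and also reached the promoter of its neighbour Zfp771, while in replicate 1 it was 9.2 kb long and did not.

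**Figure D1:**
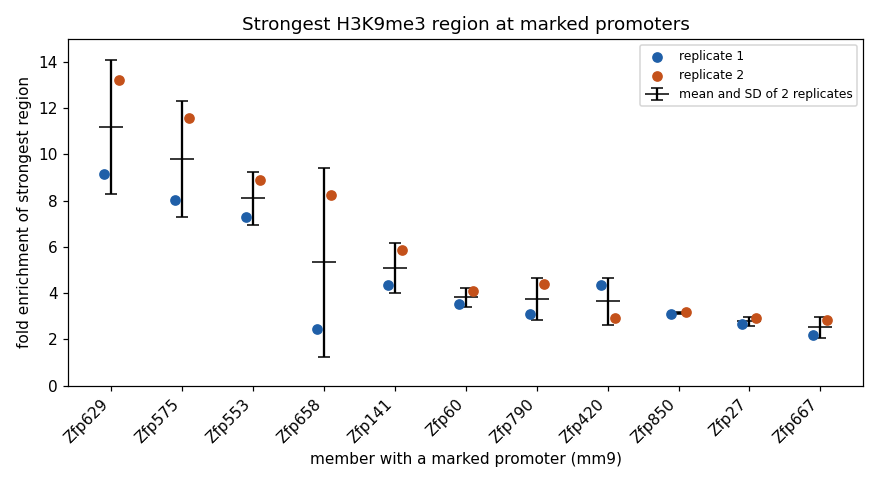
Fold enrichment (linear, vertical axis) of the strongest mm9 region at each of the 11 marked promoters (horizontal axis, by mean). Points are the replicates, and bars give the mean and SD of 2 replicates. Zfp629, Zfp575 and Zfp553 are the 3 highest, and Zfp658 has the widest gap between replicates, 2.45 against 8.23.

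The replicates differed most at Zfp658, with 2.45 in replicate 1 and 8.23 in replicate 2 (5.34 ± 4.09, SD, n = 2). Replicate 1 had a separate region of 1.8 kb there, and replicate 2 a region of 11.8 kb that ran on into the gene. Zfp141 had 4.33 and 5.87 (5.10 ± 1.09, SD, n = 2). Replicate 2 was higher at 10 of the 11 promoters, the exception being Zfp420, whose human counterpart is known as a regulator of p53. It had 4.37 in replicate 1 and 2.92 in replicate 2. Zfp141 was above Zfp60, Zfp850, Zfp27 and Zfp667 in both replicates, while the values of Zfp658 overlapped those of most other members.

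The other marked promoters had means below 4. Zfp60 had a mean of 3.81 ± 0.41 (SD, n = 2), Zfp790 3.75 ± 0.89, Zfp420 3.64 ± 1.02, Zfp850 3.14 ± 0.04, Zfp27 2.79 ± 0.20 and Zfp667 2.52 ± 0.45. In 4 of the 11 members, Zfp629, Zfp575, Zfp553 and Zfp141, both replicates reached 4 or more. The median of the means was 3.81 over the 11 members and 3.80 over all 1239 marked genes. The members' marked promoters thus had nearly the median of marked promoters at large.

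A marked promoter was not always the first one, and the same count over all marked genes is not given here. At 6 of the 11 members (Zfp575, Zfp60, Zfp850, Zfp790, Zfp553 and Zfp629) the gene's 5′ end was marked. At the other 5 the marked starts all lay inside the gene, and the nearest was 18.1 kb from the 5′ end in Zfp667, 12.5 kb in Zfp420, 7.71 kb in Zfp27, 4.32 kb in Zfp141 and 2.53 kb in Zfp658. In the mm9 annotation Zfp850 is a single exon of 0.941 kb with 0 fingers, while its mm10 entry spans 29.7 kb, so its mm9 promoter is not the start of the longer gene.

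Promoters marked in a single replicate were few. Replicate 1 alone marked Zfp61, with a fold enrichment of 3.09, and Zfp936, with 2.98. Replicate 2 alone marked Zfp418, with 6.09, and Zfp771, with the 8.91 of the region it shares with Zfp553. Each replicate's own list thus gave 13 marked members, of which 11 were in both.

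In mm10 the peaks and the starts were different ones. Replicated peaks touched 7 of the 82 members with a listed RefSeq start, or 8.54%, against 5.89% of all genes with one (1031 of 17492). Zfp790, Zfp553 and Zfp629 were marked in both builds. Zfp418, Zfp719, Zfp936 and Zfp977 were marked in mm10 alone, and Zfp575 had no start in the RefSeq table. At Zfp553 the overlap was 152 bp in the replicated list, 18 bp in replicate 1 and 0 in replicate 2, and at Zfp629 it was 2435, 2341 and 2456 bp. At Zfp418 it was 142 bp, 0 and 123 bp, and at Zfp719 265 bp, 321 bp and 0. Zfp790, Zfp936 and Zfp977 had bases in the lists of both replicates, as Zfp629 did. The mm10 share was therefore closer to its background than the mm9 share was.

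The other 75 promoters had no shared region in mm9. Their distance to the nearest shared region ranged from 1.04 kb at Zfp418 to 129.3 kb at Zfp526, with a median of 20.2 kb, and 12 had a region within 5 kb. Among them were Zfp568, a KRAB protein known to silence a placental transcript of Igf2 (3.77 kb), Zfp296, a gene known to be active in embryonic stem cells (33.0 kb), and Zfp143, a general activator of promoters (108.6 kb). These 3 were named for what they are known to do, with their values in view.

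In base composition the marked and unmarked promoters overlapped. Marked members had a median GC content of 47.3% and 18.4 CG dinucleotides per kb, against 49.2% and 24.7 in unmarked members and 49.5% and 22.6 in all genes. The ranges were 6.0 to 54.2 CG per kb in marked and 5.0 to 77.0 in unmarked members. Words of 16 bases that occur 50 or more times in the genome were counted as a stand-in for repeats. Positions where such a word began made up a median of 7.72% of marked and 6.50% of unmarked promoters, and 5.05% over all genes.

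The last exon was the part of these genes most often covered. In mm9 at least 50% of the last exon lay in shared regions in 13 of the 86 members, or 15.1%, against a background of 3.08% of all protein-coding genes (688 of 22367). The count was 14 in replicate 1 and 13 in replicate 2. Other genes of chromosome 7 had 77 of 1986, or 3.88%. Zfp genes on other chromosomes had 37 of 258, or 14.3%, with 5 of 33 on chromosome 13 and 6 of 39 on chromosome 17. Chromosome 7 again resembled the Zfp genes elsewhere more than its own other genes.

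Coverage of the members' last exons was close to all or none, and the same split over all genes is not given here. Of the 86 last exons, 72 had 0 shared bases, and Zfp773, with 8.51%, was the only one partly covered below 50%. The 9 covered over 100% in both replicates were those of Zfp787, Zfp444, Zfp110, Zfp575, Zfp850, Zfp30, Zfp658, Zfp553 and Zfp629. Zfp27 had 92.0%, Zfp606 90.1%, Zfp94 59.5% and Zfp667 55%. Zfp110 encodes a protein known to bind the neurotrophin receptor p75.

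Fold enrichment over these exons was low for some and high for others. Zfp110 had 2.12 in replicate 1 and 2.19 in replicate 2 (2.15 ± 0.05, SD, n = 2), and Zfp444 had 2.55 and 2.65 (2.60 ± 0.07). Zfp30 had 3.20 and 2.82 (3.01 ± 0.27), the only one of the 13 that was lower in replicate 2. Zfp787 had 4.74 and 6.18 (5.46 ± 1.02), and Zfp658 5.35 and 8.23 (6.79 ± 2.04). The exons of Zfp553, Zfp575 and Zfp629 lay in the same regions as their promoters and had the same values. The gap between replicates was widest at Zfp629 and narrowest at Zfp850, with 3.11 and 3.17.

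Over all members the last exons had 16.9% of their bases in shared regions, with 18.6% in replicate 1 and 17% in replicate 2 (SD 1.13, n = 2). First exons had 9.25%, introns 5.19% and promoters 5.57%. Over all protein-coding genes these shares were 2.97% for last exons, 2.89% for first exons, 3.54% for introns and 1.99% for promoters. Last exons, which were near the other parts in genes at large, were the most covered part in the members. With only regions of a fold enrichment of 4 or more, the members' shares fell to 7.99% for last exons, 2.71% for first exons, 3.31% for introns and 2.84% for promoters, and those of all genes to 1.09%, 0.881%, 1.07% and 0.673%. The last exon kept the highest share among the members in each replicate at this threshold, with 8.16% and 7.99%. Zfp genes on other chromosomes had 11.2% of last exon bases and 8.77% of first exon bases covered.

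**Figure D2:**
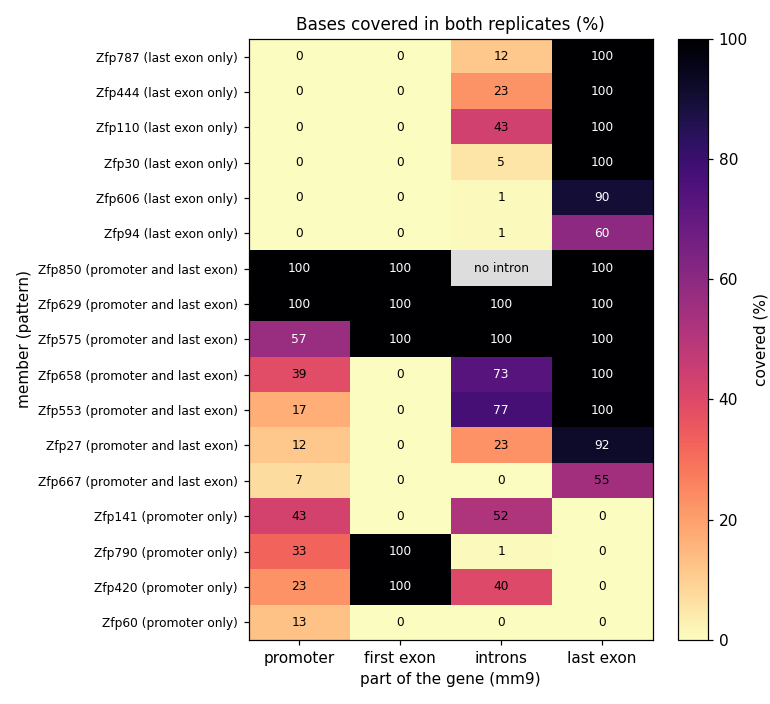
Share of bases (%, colour and printed value) in regions of both replicates for the promoter, first exon, introns and last exon (horizontal axis, mm9) of the 17 members with a marked promoter or a mostly covered last exon (vertical axis, with the pattern). In 6 members only the last exon is called, in 7 both the promoter and the last exon and in 4 only the promoter.

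The promoter and the last exon fell into 3 patterns. In 6 members (Zfp787, Zfp444, Zfp606, Zfp110, Zfp94 and Zfp30) the last exon was mostly covered and the promoter had no shared region. In 7 (Zfp667, Zfp575, Zfp850, Zfp27, Zfp658, Zfp553 and Zfp629) both were called. In 4 (Zfp60, Zfp790, Zfp420 and Zfp141) only the promoter was, and 69 members had neither. Both were called in 369 of all 22367 protein-coding genes and in 22 of the 258 Zfp genes on other chromosomes, beside 7 of the 86 members. The counts of the other patterns over all genes are not given here. Zfp629 and Zfp575 were covered from promoter to end, with 100% of first exon, introns and last exon. In Zfp27, Zfp667 and Zfp658 the marked start lies inside the gene and the first exon had 0%. In Zfp27 and Zfp667 the same region of each replicate gave both calls. The single exon of Zfp850 lies within its promoter window. A call of both is therefore not always a mark at separate ends of the gene. The mm9 entry of Zfp27 lies wholly within that of Zfp420, on the other strand, so the introns of Zfp420 include the regions at Zfp27. The Zfp420 entry is 55.7 kb long in mm9 and 17.3 kb in mm10. Its mm9 last exon of 0.564 kb holds only 6 of its 22 fingers. The call of Zfp420 as promoter only thus depends on its mm9 entry.

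Fingers were counted as codons for 2 cysteines and 2 histidines at C2H2 spacing in the coding sequence. The 86 members had 969 fingers, of which 816, or 84.2%, were in the last exon. The median was 11 per gene and the most 33, in Zfp619. Of the 82 members with at least 3 fingers, 67 had all of them in the last exon. The finger array, from the first to the last finger, was at least 50% covered in 12 of 84 members and had 0 shared bases in 71. The same share over the finger arrays of other genes is not given here, so this count has no background. In Zfp94 and Zfp606, whose last exons were only partly covered, the array was covered over 100%. The uncovered bases of these exons were thus outside the fingers. In Zfp667, also partly covered, the array was covered over 68.8%, so uncovered bases lay within its fingers.

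Over all genes the shares called rose with the number of fingers, while the member groups as annotated showed no steady rise. Last exons were called in 2 of 9 members with 0 to 4 fingers, 3 of 24 with 5 to 9 and 8 of 53 with 10 or more, or 15.1% of the last group. Promoters were marked in 1, 1 and 9 members of these groups. Zfp850, whose 0 fingers come from its short mm9 entry of 0.941 kb, is the 1 marked promoter of the first group. It is also 1 of that group's 2 called last exons. The order of the member groups thus depends on this entry. Over all protein-coding genes last exons were called in 2.81%, 8.08% and 20.1% of the 3 groups, and promoters in 5.37%, 6.06% and 17.7%. The member groups are small, and their difference from all genes was not tested. Zfp619, with the most fingers, and Zfp646, with 27, had 0% of the last exon in shared regions.

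**Figure D3:**
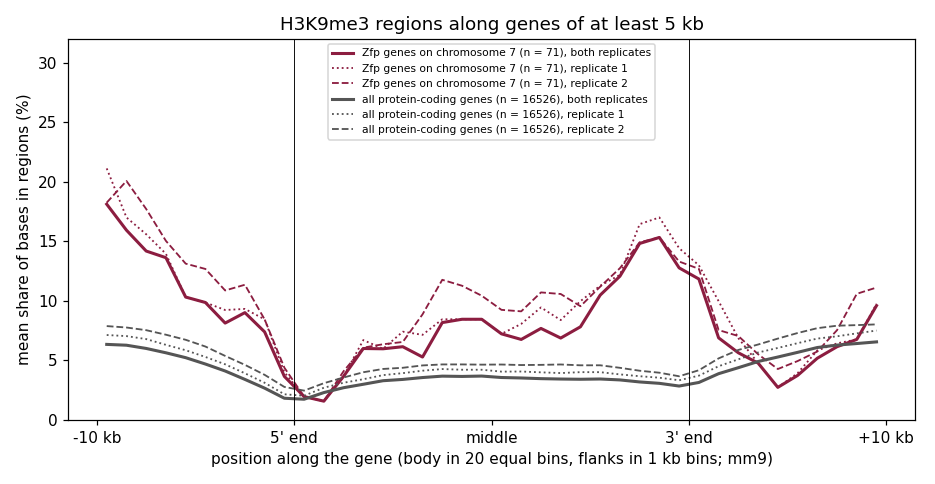
Mean share of bases in regions (%, vertical axis) along genes of at least 5 kb in mm9, with the body in 20 equal bins and 10 kb on either side in 1 kb bins (horizontal axis), for 71 members and 16526 protein-coding genes. Lines give bases covered in both replicates and in each replicate. Within the body the members rise toward the 3′ end and dip at the 5′ end, where they are near the curve of all genes. Their line for both replicates is highest in the farthest upstream bin.

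Along the gene, coverage was lowest at the 5′ end. In the 71 members of at least 5 kb the mean share in shared regions was 1.96% in the first of 20 bins and 1.73% in the 16526 genes of that length. It was 3.83%, 7.30%, 7.27% and 13.1% over 4 consecutive equal parts of the members' bodies, and 2.60%, 3.59%, 3.48% and 3.18% over those of all genes. In the last of these parts the replicates had 14.3% and 13.5%. The 10 kb upstream of the members had 11%, against 4.62% for all genes, and the 10 kb downstream 6.33% against 5.26%. These means hide differences within the flanks. The farthest upstream bin of the members had 18.1% in shared regions, above the highest bin of the body, 15.3%. Downstream, the share fell from 11.8% next to the gene to a lowest value of 2.73% and was 9.60% in the farthest bin. All genes had 3.14%, 5.28% and 6.55% in these bins. Both flanks include neighbouring members where these lie close.

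The narrow peaks of mm10 gave the same order. Of the 82 members with a known strand, bodies split into 3 equal parts had 5.70% of bases in replicated peaks in the 5′ part, 6.52% in the middle and 11.5% in the 3′ part. Replicate 1 had 4.21%, 5.57% and 9.91%, and replicate 2 5.75%, 6.73% and 11.6%. All protein-coding genes had 2.10%, 2.24% and 2.34%. Member by member, 19 had more in the 3′ part and 9 more in the 5′ part, so that 67.9% of these leaned to the 3′ side. Over all genes 2362 leaned to the 3′ part and 2132 to the 5′ part, or 52.6%. Zfp genes on other chromosomes leaned the same way, with 42 against 27, or 60.9%, and 3.35%, 5.28% and 5.54% of bases in the 3 parts. Without Zfp936, the member with the most covered bases, the shares were 4.72%, 5.54% and 10.0%.

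In mm10 the members differed from the background in how much of a body was covered more than in how many bodies were touched. A replicated peak lay in 31 of the 90 bodies, or 34.4%, which is near the 30.8% of all protein-coding genes (6732 of 21887). At least 10% of the body was covered in 19 members, or 21.1%, against a background of 5.34% (1168 of 21887). Replicate 1 gave 17 such members and replicate 2 gave 19. Other genes of chromosome 7 had 124 of 1940, or 6.39%, and Zfp genes on other chromosomes 41 of 277, or 14.8%, with 5 of 32 on chromosome 13 and 5 of 41 on chromosome 17. Among genes with a peak the median coverage was 15.3% in members and 3.07% in all genes.

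**Figure D4:**
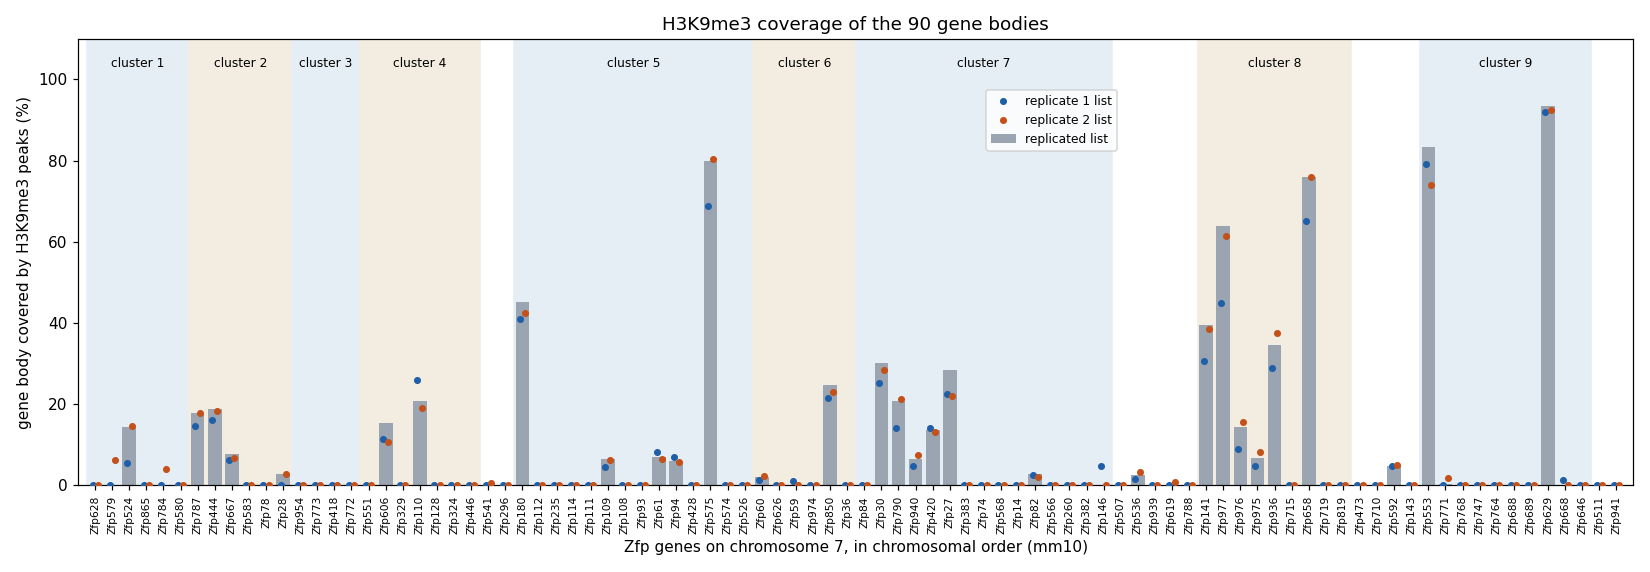
Share of each gene body (%, vertical axis) in H3K9me3 peaks for the 90 members in chromosomal order (horizontal axis, mm10). Bars are the replicated list, points the lists of each replicate, and shading the 9 clusters. In 5 members the bar is above 50%, in 59 it is at 0.

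In all, 7.71% of the members' body bases lay in replicated peaks, with 6.38% in replicate 1 and 7.81% in replicate 2 (SD 1.01, n = 2). The share was 2.30% in all protein-coding genes, 2.55% in the other genes of chromosome 7 and 4.34% in Zfp genes elsewhere. The covered bases were unevenly spread. Zfp936 held 27.0 kb of the 151.5 kb, or 17.8%, and the 5 members with the most covered bases (Zfp936, Zfp141, Zfp536, Zfp180 and Zfp658) held 48.7%.

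At the top stood 5 members with more than 50% of the body covered. Zfp629 had 93.4% in the replicated list, 92.0% in replicate 1 and 92.5% in replicate 2. Zfp553 had 83.5%, with 79.2% and 73.9% in the replicates. Zfp575 had 79.9%, with 68.8% and 80.3%. Beside these short genes of cluster 9 and cluster 5 were a pair from cluster 8. Zfp658 had 76.1%, with 65.2% and 76.1% in the replicates, and Zfp977 had 63.8%, with 45% and 61.4%. Zfp629 stood above the others in both replicates, and the next 3 overlapped in their replicate values.

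Further down, 14 members had between 10% and 50%. Zfp180 had 45.1% (41.0% and 42.5% in replicates 1 and 2), Zfp141 39.4% (30.6% and 38.5%) and Zfp936 34.7% (29% and 37.4%). Zfp30 had 30.2% (25.3% and 28.4%) and Zfp27 28.4% (22.4% and 22%). The other 9 of the 14 ranged from 13.8% in Zfp420 to 24.8% in Zfp850. Just below the 10% line were Zfp667 with 7.80% and Zfp61 with 6.94%. Of the 31 members with a replicated peak, 23 had more coverage in replicate 2 and 8 in replicate 1.

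Zfp536, a repressor of neuronal differentiation and the longest member at 456.0 kb, had 21 replicated peaks but only 2.56% of its body covered (1.58% and 3.17%). Its 11.7 kb of covered bases rank among the most of any member. It lies outside the clusters, as does Zfp592 with 4.77%. None of the 13 members outside clusters reached 10%.

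The strongest peak of a member was that of Zfp629, with a fold enrichment of 27.0 in the replicated list, 19.0 in replicate 1 and 29.8 in replicate 2. Zfp658 had 17.8, with 9.89 and 19.3, and Zfp141 17.7, with 9.89 and 19.7. Zfp936 had 16.8, with 12.2 and 16.3. Replicate 2 had the higher value at 27 of the 30 members with a peak in both replicates. The 142 peaks had a median length of 0.593 kb, and the longest, in Zfp658, was 8.85 kb. A single peak touched 2 members, Zfp61 and Zfp94, whose mm10 spans overlap at their ends.

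At Zfp180 the lists differed. It had 45.1% of its body in replicated mm10 peaks, with 10 peaks and a strongest fold enrichment of 11.9 (11.4 in replicate 1 and 11.6 in replicate 2). In mm9 replicate 2 had a region with a fold enrichment of 3.89 over 40.3% of the body, close to the mm10 value, while replicate 1 had 0%. Its share in shared mm9 regions was therefore 0%, and the nearest shared region was 33.9 kb from its promoter. Zfp936 also differed, as its entry is 3.31 kb long in mm9 and 77.9 kb in mm10. The mm9 promoters of Zfp976 and Zfp977, members in mm10 alone, could not be compared.

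No peak was found in many members. The replicated list had none in 59, and 50 had none in any of the 4 mm10 lists. The other 9 had peaks in a single replicate's list (7 members) or in the pooled list alone (2 members), covering at most 6.28% of the body. The members without a replicated peak included Zfp568, Zfp143 and Zfp296, as well as Zfp473, known for its part in processing histone messages. Zfp541, a gene of meiotic germ cells, had a peak in replicate 2 alone, covering 0.636% of the body.

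Clusters were runs of at least 3 members whose neighbours lie at most 500 kb apart in mm10. This gave 9 clusters with 77 members, from 4 to 15 each, and left 13 members outside. The rest of a span is all of its sequence outside member bodies, and it includes any genes with other symbols. The cluster spans together had 7.59% of their bases in replicated peaks, with 5.99% in replicate 1 and 7.80% in replicate 2. Chromosome 7, between its first and last replicated peak, had 4.01% (3.02% and 4.34%), and its sequence outside the clusters 3.88% (2.92% and 4.22%). The span was above the chromosome's value in 7 of the 9 clusters in the replicated list and in replicate 1, and in 6 in replicate 2. The difference is cluster 5, with 4.05% in the replicated list and 4.02% in replicate 2.

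**Figure D5:**
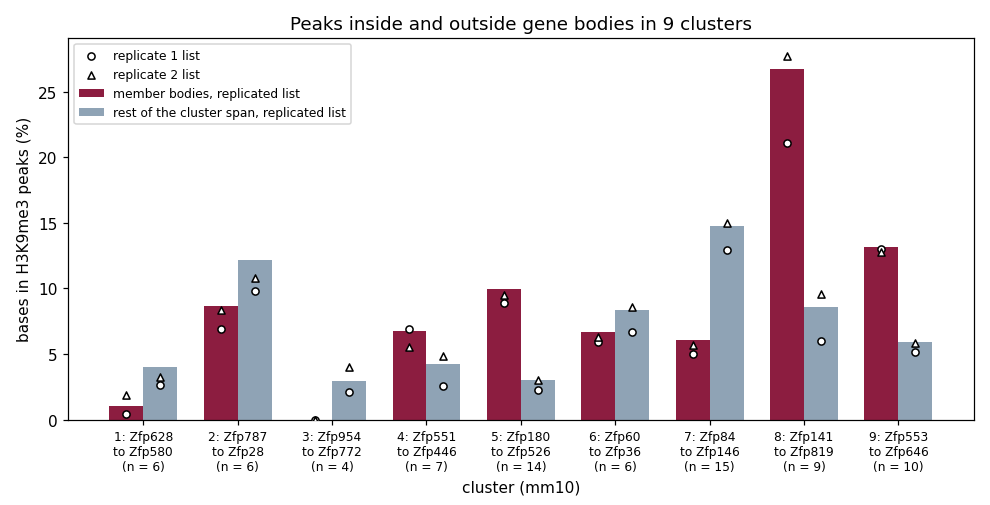
Share of bases in replicated mm10 peaks (%, vertical axis) in the members' bodies and in the rest of the span for each of the 9 clusters (horizontal axis, with the first and last member and the number of members). The rest of the span includes any genes that are not members. Open symbols give each replicate's list. Bodies are above the rest in clusters 4, 5, 8 and 9 and below it in the other 5.

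Cluster 8, from Zfp141 to Zfp819 (chr7:42473386-43618279), was the most covered. Its 9 members include 6 with a peak, and Zfp658 had the most. Their bodies had 26.7% of bases in replicated peaks, with 21.1% in replicate 1 and 27.7% in replicate 2, against 8.59% in the rest of the span (5.99% and 9.57%). Zfp715, Zfp719 and Zfp819, the last a KRAB gene of the male germ line, had none. Covered and uncovered genes thus stood side by side in the span.

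Bodies were also more densely covered than the rest of the span in clusters 4, 5 and 9. Cluster 9, from Zfp553 to Zfp646 (chr7:127233061-127885996), had 13.1% in bodies and 5.93% in the rest, with 3 of 10 members touched. Of these Zfp771 had only 0.253%, so Zfp629 and Zfp553 held nearly all covered body bases. Cluster 5, from Zfp180 to Zfp526 (chr7:24081877-25227876), had 9.94% in bodies and 2.99% in the rest. There 5 of 14 members had a peak, led by Zfp575, and Zfp526, at the far end, had none. Cluster 4, from Zfp551 to Zfp446, had 6.77% in bodies and 4.22% in the rest, with Zfp110 the most covered of its 2 touched members at 20.8%. The difference had the same direction in both replicates of these 3 clusters. Since bodies fill little of each span, most covered bases still lay outside them, 77.2% in cluster 4, 62.7% in cluster 5, 72.6% in cluster 9 and 53.9% in cluster 8.

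The opposite held in cluster 7, the one with the most members. Its 15 genes, from Zfp84 to Zfp146 (chr7:29768552-30169775), fill 63.9% of the span, and 6 had a peak. The bodies had 6.05% of bases in replicated peaks (5.03% and 5.67% in the replicates) and the rest of the span 14.7% (13% and 15%). The 5 neighbours Zfp30, Zfp790, Zfp940, Zfp420 and Zfp27 all had a peak, covering from 6.55% in Zfp940 to 30.2% in Zfp30. Of the members beyond them, from Zfp383 to Zfp146, only Zfp82 had a replicated peak, with 2.79%.

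In clusters 1, 2, 3 and 6, as in cluster 7, bodies had a smaller share covered than the rest of the span. Cluster 2, from Zfp787 to Zfp28, had 10.5% of its span covered (8.42% and 9.66% in the replicates), with 4 of 6 members touched and Zfp444 the most covered at 18.9%. Cluster 6, from Zfp60 to Zfp36, had 8.07%, with Zfp850 at 24.8%. Cluster 1, from Zfp628 to Zfp580, had 3.04%, with Zfp524 the only member touched, at 14.4%. Cluster 3, from Zfp954 to Zfp772, had 1.93%, and the bodies of its 4 members had no peak in any mm10 list. It was the only cluster of the 9 of which this held. Peaks or regions lay close by. The replicated list touched the promoter of its member Zfp418 over 142 bp, with 0 in replicate 1 and 123 bp in replicate 2. In mm9 the last exon of Zfp773 had 8.51% of its bases in shared regions.

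Other zinc finger genes of the chromosome, with symbols such as Zscan, Zkscan, Zim, Zbtb or Peg3, are not members. Of 17 such genes 3 had a marked promoter, among them Peg3, an imprinted gene, with a fold enrichment of 3.46 in replicate 1 and 5.18 in replicate 2 (4.32 ± 1.22, SD, n = 2). Peg3 had 30.5% of its body covered in mm10, more than all but 8 of the members.

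Genes that write, bind or remove H3K9me3 or work with KRAB proteins had few peaks, as had genes at large. Of 19 mm9 entries of Trim28, Setdb1, Atf7ip, Atrx, Daxx, Cbx1, Cbx3, Cbx5, Morc3, Suv39h1, Suv39h2, Ehmt1, Ehmt2, Uhrf1, Dnmt1, Kdm4a, Kdm4b and Kdm4c, 1 had a marked promoter, 5.26%, near the background of 5.54%. It was an entry of Atf7ip, the partner of Setdb1, with 3.86 and 5.39 (4.63 ± 1.08, SD, n = 2). The other mm9 entry of Atf7ip was unmarked, with 0% of its promoter covered. In mm10 3 of the 18 genes had a replicated peak, 16.7% beside the background of 30.8%, covering 6.35% of Morc3, 2.14% of Atf7ip and 0.288% of Atrx. None reached 10%, which 5.34% of all genes did. Trim28, which itself lies on chromosome 7, had none.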

How the data were processed

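H3K9me3 ChIP-seq peak lists of 2 biological replicates, 1 group, were used. Per the deposited file lists, the authors called mm9 regions (broadPeak) and mm10 peaks (narrowPeak) in each replicate, called mm10 peaks on both alignments together, and made the replicated mm10 list from these 3. How the third mm9 list was made is not stated there; it is called pooled. Neither the aligner nor the caller is named in the sources used here. How multiply mapping reads were treated, which bears on duplicated genes, is not stated either. The deposited values are a fold enrichment (a linear ratio), −log10 p and −log10 q in mm10, and linear p-values and q-values in mm9; the deposited display score entered no result.

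Covered bases were computed with Python 3.11.15, numpy 2.4.6 and pandas 2.3.3 and checked on simulated intervals and genes with known answers. mm9 used GENCODE M1 transcripts, taking for exons the transcript with the longest coding sequence; mm10 used RefSeq spans (GRCm38.p6), with strand and starts from the RefSeq promoter table for 82 of 90 members. No coordinates were converted. Mean ± SD describes values called separately in each list. Fingers were counted from mm9 codons (cysteines 2 to 4 codons apart, 12 codons between, histidines 3 to 5 apart), since the plan's protein table was not used here, and no KRAB pattern was run.

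Named were the 10 strongest marked promoters (all 11 are given), the 10 most covered bodies, the 5 most covered last exons (9 tied), and the first, last, most and least covered member of each cluster; others are named where counted. Members and lists were chosen with earlier results of these data known. Alternatives were other lists, thresholds, windows, transcripts and builds, and each replicate alone.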

Additional observations from a re-analysis of the deposited data

How the results depend on the processing

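With 2 replicates, leaving 1 out means using the list of the other alone. Marked promoters numbered 11 in mm9, 13 with either replicate alone and 14 with the pooled list. They numbered 4 with a fold enrichment of at least 4, 18 within 2.5 kb, 23 within 5 kb, 6 at the gene's 5′ end, 3 with at least 50% of the window covered and, chosen after seeing the data, 7 with mm10 peaks and RefSeq starts. This count thus depends on the window and the threshold more than on the replicate. Of these alternatives only the mm10 count has a share over all genes to stand beside, 5.89%. Whether the others exceed their background is not known. The share of body bases, 7.71%, was 6.38% to 7.81% with 1 replicate, 8.77% with the pooled list, 6.32% with a fold enrichment of at least 4, 8.85% with peaks within 1 kb merged and 6.23% with mm9 regions and spans. The share of last exon bases, 16.9%, was 17% to 18.6% with 1 replicate, 18.1% with the pooled list and 7.99% with a fold enrichment of at least 4, where it was 1.09% over all genes. The cause of these shifts was not tested. The 19 members with at least 10% of the body covered were 17 to 19 with 1 replicate, 13 in mm9 and 19 under each other alternative run. No share over all genes was computed for these alternatives. Clusters numbered 10 with a gap of 250 kb, 8 with 1 Mb and 9 in mm9. No paired analysis was possible because there is 1 group and no comparison between groups. Depth is unknown, so a gene without a peak cannot be told apart from one below detection.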
